A study of Homo sapiens with 3 samples.

Results

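Interferon-stimulated genes and the sensors of foreign RNA were followed across the 3 arrays of a knockdown experiment in a tongue carcinoma line. The list held 49 genes, chosen by name. A gene was measured where at least 1 probe set was annotated to it alone, and the brightest such probe set, by mean log2 value over the 3 arrays, stood for it. This gave 48 of the 49 genes, out of 18239 genes measured in all, and they were covered by 135 probe sets; STAT2, which pairs with IRF9 in the interferon-activated factor ISGF3, was not analysed here. The cells were GFP-SAS, a culture of the established human line SAS, and a small interfering RNA (siRNA) at 10 nM was applied for 24 h before each array. The siNT library received a non-targeting siRNA and is labelled as control. The siAkt1-22 and siAkt1-58 libraries received different siRNAs against AKT1 and both carry the label of an Akt1 knockdown. Each siRNA was represented by 1 library, so no value below has a replicate error, and nothing in the labels ties the libraries to separate cultures.

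Cells that detect foreign or double-stranded RNA through the sensors RIG-I, encoded by RIGI, and MDA5, encoded by IFIH1, signal through the mitochondrial adaptor MAVS to make type I and type III interferons. Secreted interferon binds its receptors, the JAK kinases phosphorylate STAT proteins, and ISGF3 enters the nucleus and binds the interferon-stimulated response element (ISRE) in front of the stimulated genes. Interferon gamma acts mainly through STAT dimers at another element, the gamma-activated sequence (GAS). The proteins made include RNA sensors, nucleases and translation blockers, and the antigen presentation machinery, and epithelial cells as well as immune cells can mount this response.

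AKT1, the targeted kinase, read 6.75 with siNT, 3.67 with siAkt1-22 and 3.47 with siAkt1-58 on the log2 scale. The array medians over all probe sets were 4.59, 4.59 and 4.58. Epithelial markers were bright: EPCAM was at 11.38, 11.67 and 11.29 and KRT18 at 11.66, 11.66 and 11.23 with siNT, siAkt1-22 and siAkt1-58, although the basal keratin KRT14 was near the floor (3.65 to 3.67). Of 12 leukocyte markers 10 lay below the filter level of 3.93, the 30th percentile of gene means, PTPRC among them at 2.89 in all 3 arrays. The list averaged 3.54, 3.65 and 3.55 in the same order, and ITGAM was its 1 gene at least 2-fold higher with siAkt1-22 (3.06, 4.45 and 3.07). ITGAM averaged below the filter level, and its other probe sets gave 0 and 0.28 with siAkt1-22. Fibroblast markers averaged 3.56, 3.56 and 3.54 and endothelial markers 3.80, 3.86 and 3.82. Some controls of the siAkt1-22 array differed from the others too. The 9 hybridisation controls were near level, with median log2 differences from siNT of -0.04 with siAkt1-22 and 0.08 with siAkt1-58. A group of 54 other controls had a median of 0 with either siRNA. The 24 spiked poly-A probe sets had a median log2 difference from siNT of -0.56 with siAkt1-22 and -0.01 with siAkt1-58, the 3 ACTB control probe sets lay between -4.04 and -3.21 with siAkt1-22 and between 0.18 and 0.25 with siAkt1-58, and the GAPDH controls had medians of -0.08 and 0.02. The probe set standing for the ACTB gene read 12.12, 9.03 and 12.33 with siNT, siAkt1-22 and siAkt1-58. The part of these shifts in the results below was not tested.

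Most of the interferon-stimulated genes read above siNT with either siRNA, by more with siAkt1-22 than with siAkt1-58 at the median. With siAkt1-22, 15 of 48 genes (31.25%) exceeded siNT by 2-fold or more, against 3.16% of all genes measured, and 2 lay 2-fold or more below it, against 4.21% of all genes. For siAkt1-58 these numbers were 2 of 48 above siNT, against 1.09% of all genes, and 0 below it, against 2.51%. More cells that express a gene and more of its RNA per cell cannot be told apart in such bulk samples. Over the 48 genes the median log2 difference was 0.50 for siAkt1-22 and 0.09 for siAkt1-58, each against siNT, while that of all genes was 0 with either siRNA. Over the 135 probe sets in place of the genes, the siAkt1-22 median was 0.13. Counting any size, 37 of the 48 genes were above siNT with siAkt1-22 (42.4% of all genes) and 7 below it (30.7% of all genes). With siAkt1-58, 32 were above siNT (39.9% of all genes) and 10 below it (31.9% of all genes). The rest were exactly equal to siNT: 4 genes with siAkt1-22 (26.9% of all genes) and 6 with siAkt1-58 (28.2% of all genes). The medians of 0 over all genes fall among such ties. IRF9 and OAS1 were at least 2-fold higher with both siRNAs, 2 of 48 genes against 0.515% of all genes, and 0 genes were at least 2-fold lower with both, against 0.822%. With the probe sets of each gene averaged, 0 members were 2-fold above siNT with siAkt1-58, and so 0 with both. Both differences share the siNT library.

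**Figure D1:**
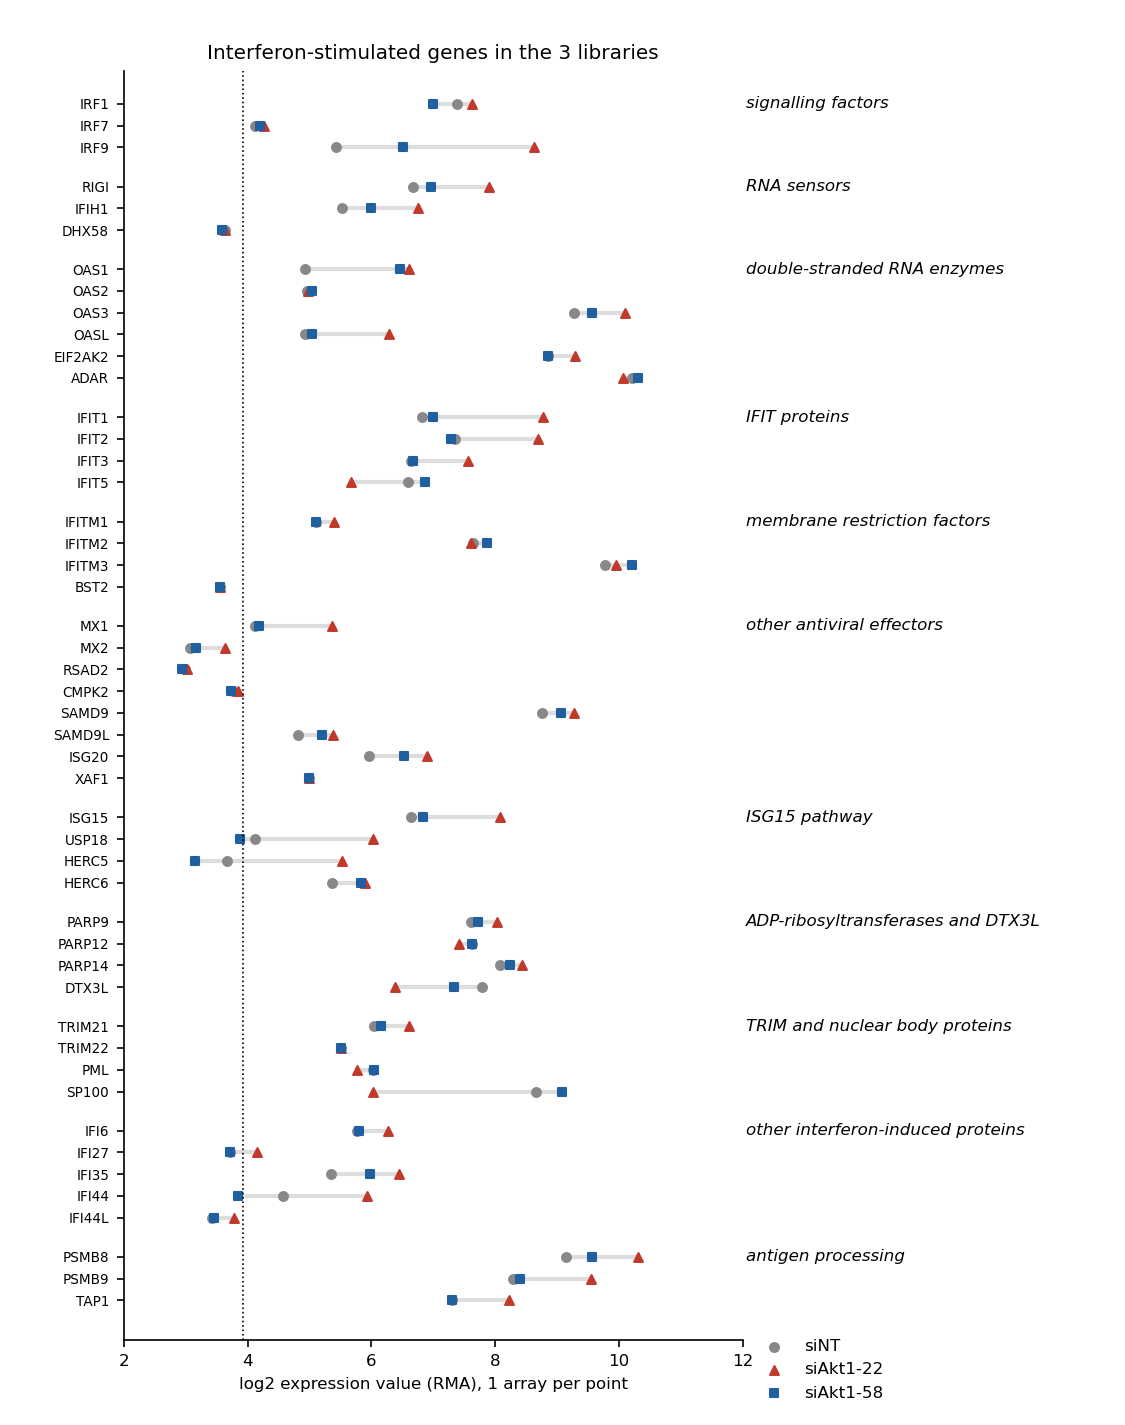
Log2 expression values (RMA) of the 48 measured genes, grouped by role, with 1 array per point: grey circles siNT, red triangles siAkt1-22, blue squares siAkt1-58; grey bars join the lowest and highest array and the dotted line marks the filter level of 3.93. IRF9 spans 5.43 to 8.63, SP100 is the widest gap on the other side (6.02 with siAkt1-22), and 7 genes average below the dotted line.

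The comparison of the siRNAs with each other does not use the siNT library. In 10 of the 48 genes siAkt1-22 exceeded siAkt1-58 by 2-fold or more, against 3.59% of all genes, and in 2 (SP100 and IFIT5) it lay 2-fold or more below, against 3.71%. Counting any size, siAkt1-22 was the higher of the pair in 36 genes (40.4% of all genes) and the lower in 9 (32.8% of all genes). The pair was exactly equal in 3 genes (26.8% of all genes). The 10 were HERC5, IFI44, IFIT1, IFIT2, IRF9, ISG15, MX1, OASL, PSMB9 and USP18. All 10 were also at least 2-fold above siNT, so that siAkt1-22 exceeded both other libraries by 2-fold in 10 of 48 genes and in 1.32% of all genes. Both comparisons use the same siAkt1-22 array, so this overlap is no independent support. The median difference between the siRNAs was 0.35 over the 48 genes and 0 over all genes. There is 1 library on each side and no test.

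**Figure D2:**
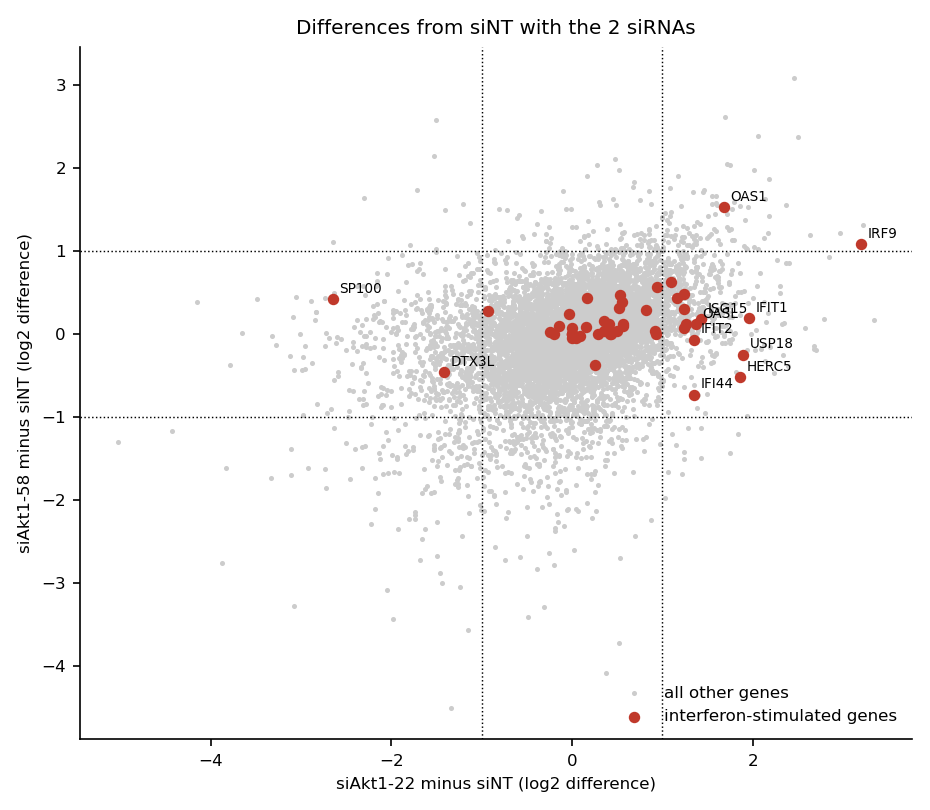
Log2 difference from siNT with siAkt1-22 (horizontal) and with siAkt1-58 (vertical) for the 48 interferon-stimulated genes (red) and all other genes (grey), 1 array for each siRNA; dotted lines mark 2-fold. Most red points lie right of 0 and near 0 on the vertical axis, with OAS1 (1.68 and 1.52) and IRF9 (3.20 and 1.08) in the upper right and SP100 (-2.64 and 0.42) far left.

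Limma's moderated test, with the siAkt1 libraries as a pair against siNT, was also fitted across the 12779 genes with a mean at or above the filter level. With 1 residual degree of freedom it called 0 genes at an adjusted p under 0.05 (limma, Benjamini-Hochberg, 0% of the genes tested in either direction), and 579 higher and 375 lower genes had an unadjusted p under 0.05. Of the 48 genes 41 passed the filter. OAS1 had a mean log2 difference of 1.60 with a standard error of 0.11 (limma adjusted p = 0.607) and HERC6 one of 0.50 with a standard error of 0.05 (limma adjusted p = 0.614), and these were the 2 of the 41 genes with an unadjusted p under 0.05 and higher values, a share near the 4.53% of all genes tested; 0 of the 41 were lower at that p, against 2.93%. IRF9, with unlike values for the siRNAs, had a mean difference of 2.14 with a standard error of 1.51 (limma adjusted p = 0.979). HERC5 passed the filter through its siAkt1-22 value alone.

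Promoter sequences were read for the genes at least 2-fold higher with siAkt1-22 whose window held the ISRE core (GAAA, any 2 bases, GAAA) before the transcript start, because these genes read high in the same library and share this element. The windows are RefSeq sequence of build GRCh38.p14. All 6 such genes are shown 5′ to 3′ on the gene's strand, with 30 bases on either side of the matches as far as the transcript start allows. Capitals mark the core in either orientation (as given or as its reverse complement). Another 6 genes at least 2-fold higher with siAkt1-22 had a window without a core before the start. The MX1 window is that of the most downstream of its 3 annotated starts. IRF9, chosen after its values were seen as the gene with the largest difference, is shown with its GAS match TTCNNNGAA in capitals.
IFIT1, chr10:89392477-89392559, plus strand: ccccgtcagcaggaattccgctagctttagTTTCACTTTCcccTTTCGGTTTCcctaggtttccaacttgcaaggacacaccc
HERC5, chr4:88456964-88457084, plus strand: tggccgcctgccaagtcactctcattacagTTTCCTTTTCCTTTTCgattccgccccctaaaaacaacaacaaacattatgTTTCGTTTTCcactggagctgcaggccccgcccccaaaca
ISG15, chr1:1013354-1013429, plus strand: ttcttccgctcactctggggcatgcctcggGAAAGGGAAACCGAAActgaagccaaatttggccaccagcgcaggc
IFI44, chr1:78649741-78649788, plus strand: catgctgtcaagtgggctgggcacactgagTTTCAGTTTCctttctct
MX1, chr21:41431824-41431893, plus strand: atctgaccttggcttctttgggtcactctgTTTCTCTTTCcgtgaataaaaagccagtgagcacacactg
IFIH1, chr2:162318685-162318873, minus strand: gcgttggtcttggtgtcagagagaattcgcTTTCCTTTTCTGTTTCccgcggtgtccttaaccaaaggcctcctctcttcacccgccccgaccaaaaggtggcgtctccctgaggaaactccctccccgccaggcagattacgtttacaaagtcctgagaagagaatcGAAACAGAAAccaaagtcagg
IRF9, chr14:24161172-24161240, plus strand: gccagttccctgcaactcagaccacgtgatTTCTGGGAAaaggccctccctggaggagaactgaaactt

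The cores are tandem in several of these promoters. In ISG15, HERC5 and IFIH1 consecutive matches overlap, and in IFIT1 they are 3 bases apart. Over all genes with a promoter window (250 bases before to 50 after the annotated start), the ISRE core was found on either strand in 26 of 38 interferon-stimulated genes, or 68.4% (95% exact binomial interval 51.3% to 82.5%), and in 4.38% of 27305 genes; by window, 3.57% of 35116 windows held it. The GAS motif, which reads the same on both strands, was found in 11 of 38, or 28.9%, and in 9.38% of genes. The motifs overlapped in BST2, IFI27, IFITM1 and MX1. These genes were listed as interferon targets, so the share describes the list. The median difference with siAkt1-22 was 0.50 for the 26 genes with a core and 0.54 for the 12 without, and 7 of 26 against 5 of 12 were at least 2-fold higher. IFIT5 and DTX3L carry a core and read lower with siAkt1-22, and BST2 carries 2 overlapping cores and read the same in all 3 arrays.

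**Figure D3:**
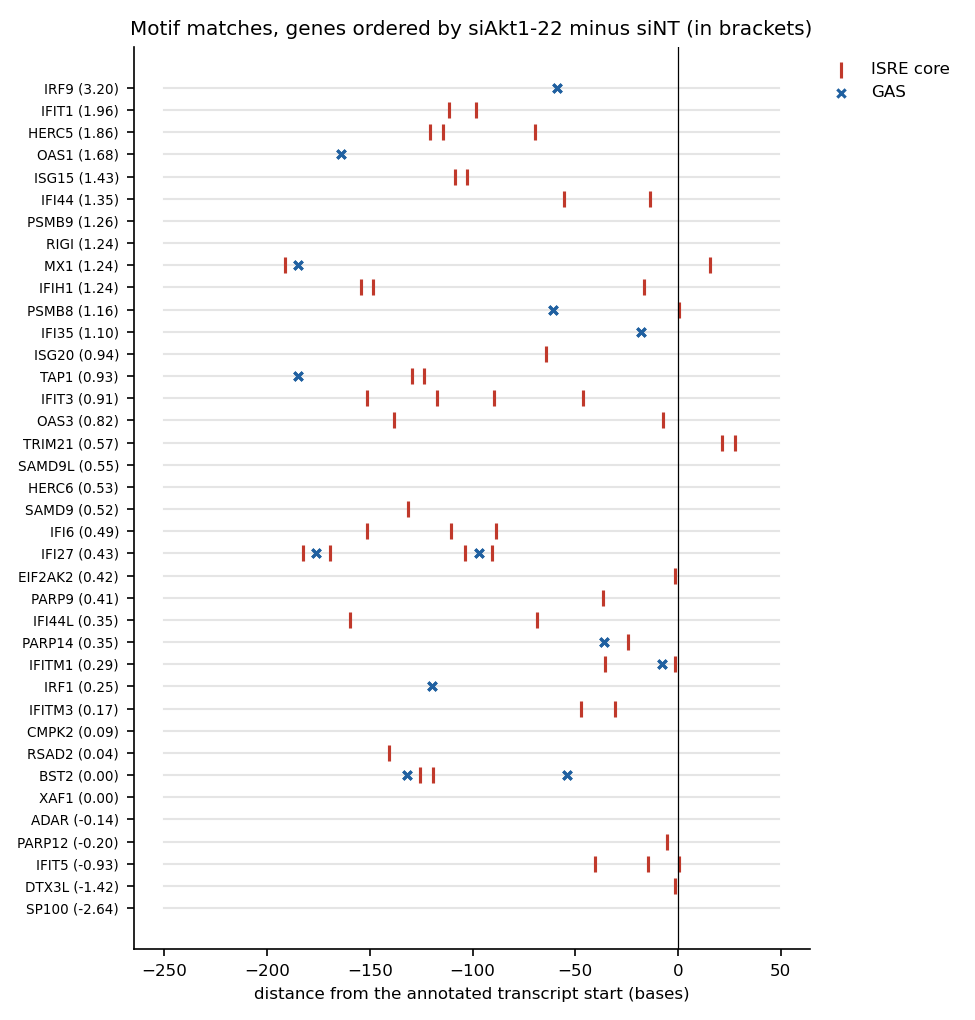
Position of ISRE cores (red bars) and GAS matches (blue crosses) in the promoter windows of 38 genes, as distance in bases from the annotated transcript start; windows of alternative starts of a gene are overlaid, and genes are ordered by their log2 difference with siAkt1-22, given in brackets. Cores lie throughout the order, from IFIT1 (1.96) down to DTX3L (-1.42), and IRF9 and OAS1 show a GAS match only.

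Among the signalling factors, IRF9 stood furthest from siNT. IRF9, the DNA-binding subunit of ISGF3, read 5.43 with siNT, 8.63 with siAkt1-22 and 6.51 with siAkt1-58, 9.18-fold and 2.12-fold higher than siNT. It was number 3 of all 18239 genes by its difference with siAkt1-22 and number 154 with siAkt1-58. Its 4 probe sets were all at least 2-fold higher with siAkt1-22 (1.24 to 3.20) and spread from 0.13 to 1.08 with siAkt1-58, where the brightest was the 1 past 2-fold. The probe set that was brightest with siNT, at 5.67, gave the smallest differences, 1.24 and 0.13, so the fold sizes and ranks above depend on the probe set chosen. IRF1, an early target of interferon gamma, showed no such gap, at 7.38, 7.63 and 7.00 with siNT, siAkt1-22 and siAkt1-58. IRF7, which amplifies interferon production, was dim and near level at 4.12, 4.27 and 4.21.

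The RNA sensors RIGI and IFIH1 had like values. RIGI, which recognises RNA with a terminal triphosphate, read 6.67 with siNT, 7.91 with siAkt1-22 and 6.97 with siAkt1-58, which puts the siRNAs 1.24 and 0.30 above siNT. All 3 of its probe sets were higher with siAkt1-22 (0.96 to 1.87) and with siAkt1-58 (0.13 to 0.47). IFIH1, the sensor of long RNA duplexes, read 5.52 with siNT and 6.76 with siAkt1-22, and the siAkt1-58 array lay between them, 0.48 above siNT. Its other probe set was dim and level at 3.32, 3.32 and 3.47. The related regulator DHX58, which lacks the signalling domain, was below the filter level in all 3 arrays, between 3.59 and 3.64.

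The oligoadenylate synthetases, which bind double-stranded RNA and activate RNase L, were split. OAS1 was at least 2-fold above siNT with both siRNAs, at 4.94 with siNT, 6.61 with siAkt1-22 and 6.46 with siAkt1-58, 3.19-fold and 2.88-fold higher. Its 4 probe sets ranged from 0.50 to 2.34 with siAkt1-22 and from 0.36 to 1.52 with siAkt1-58, and both probe sets that were brighter with siNT than the one standing for the gene gave the smaller differences. OASL, the family member without synthetase activity, read 4.92, 6.29 and 5.04 and was high with siAkt1-22 alone. OAS3 read 9.28, 10.10 and 9.57. OAS2 was at 4.97, 4.97 and 5.04 in its brightest probe set, while the 4 dimmer ones, all below the filter level, were 0.35 to 0.88 higher with siAkt1-22.

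PKR, encoded by EIF2AK2, is the kinase that stops translation when it binds RNA duplexes, and ADAR edits adenosines in them. EIF2AK2 read 8.86 with siNT, 9.29 with siAkt1-22 and 8.86 with siAkt1-58. ADAR read 10.21, 10.07 and 10.31. Neither was 2-fold from siNT with either siRNA.

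The IFIT proteins bind foreign RNA ends and block its translation, and 3 of the 4 genes were higher with siAkt1-22. IFIT1, whose tandem cores are printed above, read 6.81 with siNT, 8.77 with siAkt1-22 and 7.00 with siAkt1-58, which is a 3.89-fold difference with siAkt1-22 and a 1.14-fold one with siAkt1-58. IFIT2 read 7.35, 8.70 and 7.28, and its other probe set gave 1.12 and 0.10. IFIT3 read 6.65, 7.56 and 6.68, just short of 2-fold with siAkt1-22. IFIT5 went the other way: it read 6.60, 5.67 and 6.87, and both of its probe sets were lower with siAkt1-22 (-0.93 and -0.50).

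ISG15 is a ubiquitin-like protein that HERC5 attaches to other proteins and USP18 removes, and USP18 also dampens interferon receptor signalling. All 3 were at least 2-fold higher with siAkt1-22, each measured by 1 probe set. ISG15 read 6.65 with siNT, 8.08 with siAkt1-22 and 6.83 with siAkt1-58. USP18 read 4.13, 6.02 and 3.88, 3.72-fold higher with siAkt1-22 and slightly below siNT with siAkt1-58. HERC5 read 3.67, 5.53 and 3.15; its siNT and siAkt1-58 values lay below the filter level. HERC6, a relative of HERC5, was a little higher with both siRNAs, at 5.37, 5.90 and 5.84.

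Of the other antiviral effectors, 1 of 8 was at least 2-fold higher with siAkt1-22 in the probe set that stood for it. MX1, a GTPase that traps viral nucleocapsids, read 4.12 with siNT, 5.36 with siAkt1-22 and 4.19 with siAkt1-58. The exonuclease gene ISG20 read 5.96, 6.90 and 6.52, with siAkt1-58 between the others. SAMD9 (8.76, 9.28 and 9.07) and SAMD9L (4.82, 5.38 and 5.20), related restriction factors, kept the same order of the arrays with smaller gaps. A dimmer SAMD9L probe set above the filter level gave 1.18 with siAkt1-22 and 0.62 with siAkt1-58. MX2, RSAD2 and CMPK2, some of the most strongly inducible genes of the response, averaged below the filter level; RSAD2 lay between 2.94 and 3.03 and MX2 between 3.07 and 3.63. XAF1, a pro-apoptotic target, gave the same value of 5.00 in all 3 arrays.

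The membrane restriction factors showed no difference of 2-fold. IFITM1, IFITM2 and IFITM3 hinder virus entry at membranes, and IFITM3 read 9.78 with siNT, 9.95 with siAkt1-22 and 10.21 with siAkt1-58. IFITM1 was at 5.10, 5.39 and 5.10 and IFITM2 at 7.64, 7.61 and 7.88. BST2, which tethers budding virions, read 3.55 in all 3 arrays and lay below the filter level.

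The small interferon-induced genes of unsettled function were mixed in brightness. IFI44 read 4.58 with siNT, 5.93 with siAkt1-22 and 3.85 with siAkt1-58, so that the siRNAs lay on opposite sides of siNT. Its 3 probe sets above the filter level kept this order, with differences of 0.89 to 1.35 with siAkt1-22 and of -0.85 to -0.22 with siAkt1-58. IFI35 read 5.36, 6.45 and 5.97, and its other probe set gave 1.31 and 0.23. IFI6, an interferon-induced membrane protein, read 5.77, 6.26 and 5.80. IFI27 and IFI44L averaged below the filter level and were 0.43 and 0.35 higher with siAkt1-22.

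Antigen processing genes were higher with siAkt1-22 throughout. PSMB8 and PSMB9 are subunits of the immunoproteasome and TAP1 is a subunit of the transporter that loads peptides onto MHC class I. PSMB8 read 9.15 with siNT, 10.31 with siAkt1-22 and 9.57 with siAkt1-58. PSMB9 read 8.30, 9.56 and 8.41. TAP1 read 7.30, 8.23 and 7.30, and its other probe set gave 1.05 and 0.15. In each gene siNT and siAkt1-58 lay closer to each other than either did to siAkt1-22.

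The 2 members at least 2-fold below siNT with siAkt1-22, SP100 and DTX3L, belong to the nuclear body genes and to the group of the ADP-ribosyltransferases. SP100, a scaffold of PML nuclear bodies, read 8.66 with siNT, 6.02 with siAkt1-22 and 9.08 with siAkt1-58, 6.25-fold lower with siAkt1-22 and 1.34-fold higher with siAkt1-58. All 9 of its probe sets were lower with siAkt1-22 (-2.86 to -0.16), 6 of them at least 2-fold, and all 9 were higher with siAkt1-58 (0.16 to 0.72). It was number 41 from the bottom of 18239 genes with siAkt1-22. PML itself read 6.02, 5.77 and 6.05. Its next probe sets, at 5.60 and 5.54 with siNT, gave -0.82 and -0.65 with siAkt1-22 and 0 with siAkt1-58.

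DTX3L, a ubiquitin ligase that works in a complex with PARP9, read 7.79 with siNT, 6.38 with siAkt1-22 and 7.34 with siAkt1-58. Another probe set, nearly as bright, gave -1.48 and -0.42. PARP9 was slightly on the other side at 7.61, 8.02 and 7.73. PARP14 (8.08, 8.43 and 8.24) and PARP12 (7.62, 7.42 and 7.62) differed less. The antibody receptor TRIM21 read 6.05, 6.61 and 6.16, and TRIM22 gave 5.51 in all 3 arrays.

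The other probe sets of a gene were read from the same arrays, so their values describe these libraries and add no independent support. Among the 15 genes at least 2-fold higher with siAkt1-22, 8 had another probe set above the filter level. These 14 probe sets were all higher with siAkt1-22 (0.50 to 2.48), 10 of them at least 2-fold, and ran from -0.85 to 1.51 with siAkt1-58. Of all 135 probe sets 27 were at least 2-fold higher with siAkt1-22, or 20%, against 2.5% of probe sets in all, and 8 at least 2-fold lower, against 4.19%. For siAkt1-58, 3 of 135 exceeded siNT by 2-fold or more, against 0.921% of probe sets, and 0 lay that far below it, against 2.27%. The 8 genes were IRF9, OAS1, IFIT2, IFI44, PSMB9, RIGI, PSMB8 and IFI35, and dimmer probe sets of IFIH1, PSMB8 and IFI44, below the filter level, include some with a difference of 0 with siAkt1-22. BST2, TRIM22 and XAF1 were equal in all 3 arrays, 3 of 48 genes against 19.8% of all genes.

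**Figure D4:**
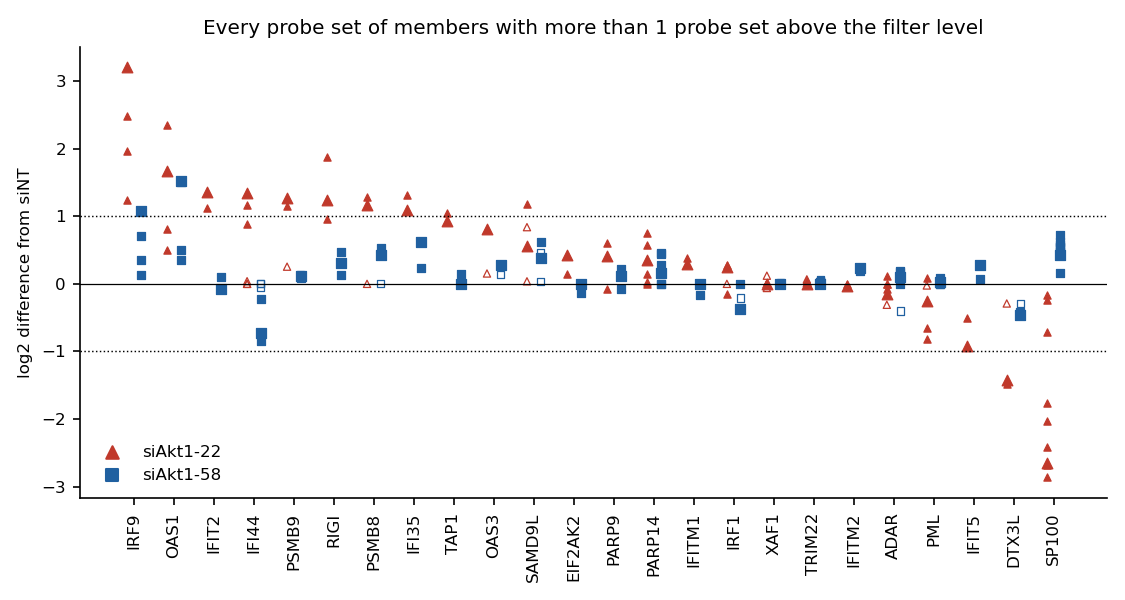
Log2 difference from siNT of every probe set of the genes with more than 1 probe set above the filter level, with siAkt1-22 (red triangles) and siAkt1-58 (blue squares), 1 array each; large symbols stand for the gene and open symbols lie below the filter level of 3.93. The 4 IRF9 probe sets lie above the upper 2-fold line with siAkt1-22, and 6 of 9 SP100 probe sets lie below the lower one.

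The pathway around these genes was described from lists of related genes. Interferon genes themselves were dim: 17 of 21 listed ligands were measured, all 17 had a mean over the 3 arrays below the filter level, and their differences ran from -0.14 to 0.24 with siAkt1-22 and from -0.20 to 0.52 with siAkt1-58. IFNB1, the interferon that RNA sensors induce first, read 3.15 with siNT, 3.38 with siAkt1-22 and 2.94 with siAkt1-58. IFNE, an interferon of epithelia, had the largest difference of the ligands, at 3.59, 3.45 and 4.11, and its siAkt1-58 value alone lay above the filter level. IFNG, the type II interferon, was at 2.93, 3.05 and 3.23. Of 9 receptors and kinases 2 lay 2-fold or more below siNT with siAkt1-22, against 4.21% of all genes. JAK1, the kinase shared by all interferon receptors, read 9.28, 7.71 and 9.63, and all 3 of its probe sets were at least 2-fold lower with siAkt1-22. IFNLR1, the specific receptor for type III interferon, read 7.00, 5.74 and 7.12, and IFNGR1, the ligand-binding receptor for interferon gamma, 7.51, 8.23 and 7.56. A dimmer IFNGR1 probe set above the filter level was past 2-fold, with differences of 1.01 with siAkt1-22 and 0.18 with siAkt1-58.

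Of the adaptors between the sensors and interferon, 0 of 19 measured genes were 2-fold from siNT with either siRNA in the probe set that stood for them. Dimmer probe sets of MAVS (1.39 with siAkt1-22) and TANK (1.12 with siAkt1-58) were past 2-fold. TBK1, the kinase that activates IRF3, read 8.09, 7.44 and 8.35 with siNT, siAkt1-22 and siAkt1-58. Its partner TANK was at 7.08, 6.90 and 8.05, and RNF135, the ubiquitin ligase that activates RIG-I, was at 5.83, 6.51 and 6.42. Among 8 measured negative regulators 0 were 2-fold from siNT by the same rule, although a dimmer CYLD probe set gave -1.21 with siAkt1-22; the phosphatase gene PTPN2 had differences of -0.71 and -0.39, NLRX1 of 0.51 and 0.33 and the deubiquitinase gene CYLD of -0.40 and -0.64.

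NF-kappaB targets and chemokines are also induced by RNA sensing. Of 13 measured, 3 exceeded siNT by 2-fold with siAkt1-22 (3.16% of all genes), 2 lay 2-fold below it with siAkt1-58 (2.51% of all genes), and in 6 siAkt1-22 exceeded siAkt1-58 by 2-fold (3.59% of all genes). TNFAIP3, the feedback inhibitor A20, read 7.94 with siNT, 9.16 with siAkt1-22 and 6.26 with siAkt1-58, on opposite sides of siNT. The chemokine CCL5 read 4.86, 6.66 and 4.88 and was high with siAkt1-22 alone. CXCL8, the neutrophil chemokine, read 6.70, 6.55 and 4.43 and was low with siAkt1-58 alone.

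In the list of PKR and stress genes, DDIT3 alone of 7 exceeded siNT by 2-fold with siAkt1-22, against 3.16% of all genes. TRIB3 alone lay 2-fold below siNT, against 4.21% of all genes. Both statements are for the probe sets that stood for the genes. DDIT3, which encodes the stress factor CHOP, read 4.81, 6.43 and 5.10, and its target TRIB3 7.70, 6.69 and 7.69, so that these stood on opposite sides. ATF3 read 5.15, 5.85 and 5.09, while a dimmer probe set above the filter level gave 1.38 with siAkt1-22 and -0.37 with siAkt1-58.

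MHC class I genes present the peptides that the immunoproteasome and TAP supply. Of 13 measured, 5 exceeded siNT by 2-fold with siAkt1-22 (3.16% of all genes) and 0 with siAkt1-58 (1.09% of all genes), and the list's median difference was 0.42 and 0.36. HLA-B, a class I heavy chain, read 8.85 with siNT, 10.68 with siAkt1-22 and 9.36 with siAkt1-58. NLRC5, the transactivator of class I genes, read 5.73, 7.48 and 6.09, and HLA-F 5.51, 7.12 and 6.15. Class I heavy chains are alike in sequence, so the values of single heavy chains are uncertain.

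A further list of 30 interferon-induced genes, 28 of them measured, had medians of 0.05 with siAkt1-22 and 0.00 with siAkt1-58. With siAkt1-22, 4 of them exceeded siNT by 2-fold (3.16% of all genes) and 1 lay 2-fold below it (4.21% of all genes). With siAkt1-58, 1 exceeded siNT by 2-fold (1.09% of all genes). GBP1, a GTPase strongly inducible by interferon gamma, read 6.70 with siNT, 9.40 with siAkt1-22 and 6.51 with siAkt1-58, and all 5 of its probe sets were higher with siAkt1-22 (2.53 to 3.64). GBP2 read 2.50, 4.23 and 2.71, and averaged below the filter level, with its siAkt1-22 value alone above it. IFI30, a lysosomal thiol reductase, was the low one at 8.73, 5.89 and 8.99.

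**Figure D5:**
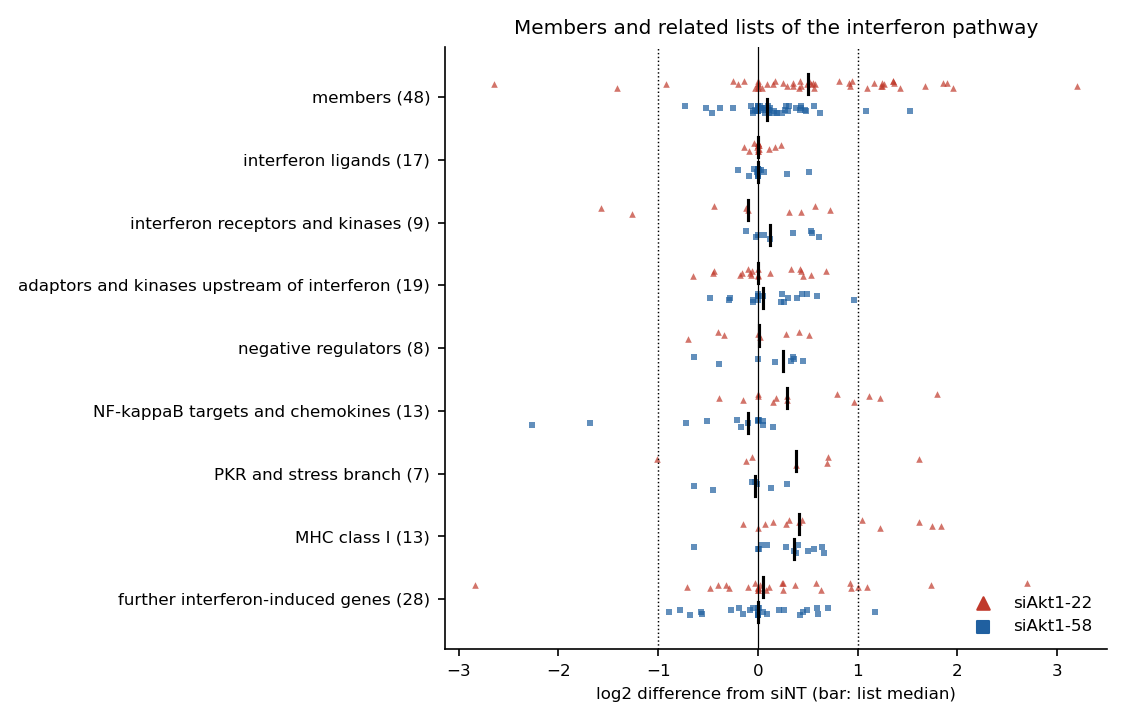
Log2 differences from siNT of the genes of each list, with siAkt1-22 (red triangles) and siAkt1-58 (blue squares), 1 array each; black bars are list medians, numbers in brackets count measured genes, and dotted lines mark 2-fold. The members' median with siAkt1-22 (0.50) lies right of that of every other list drawn, and the 17 interferon ligands have a median of 0 with either siRNA, with IFNE at 0.52 with siAkt1-58.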

How the data were processed

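Each array was deposited by the authors as log2 values, 1 for each probe set. Per the submitters' processing notes the method was RMA, and its software and settings are not given in the sources used. The log2 scale was read from the values (2.20 to 13.4). Symbols came from the platform annotation, updated through Entrez identifiers (45172 of 45253 single-gene probe sets). Gene comparisons did not use 93 controls, 2713 probe sets the annotation does not list and 1327 it gives to more than 1 gene entry. Every measured gene entered the counts by size (at least 2-fold, no test), because a filter on the mean can admit a gene through its high array alone. Limma 3.58.1 in R 4.3.3 (two-sided, Benjamini-Hochberg, threshold 0.05) used genes at or above the 30th percentile. It assumes that the lone siNT library varies like the siAkt1 libraries, so its p-values reflect the spread between the siAkt1 libraries. These libraries received different siRNAs, so their spread can hold differences between the siRNAs as well as technical ones. It is no replicate error, and its parts were not tested. The number of arrays limits the precision. Levels are not compared between genes. Every member was named; from the related lists the text names up to 3 genes with the largest difference in either library, besides markers. Members, lists and tests were chosen with earlier results of these data known. Promoter windows came from RefSeq (38 of the 48 genes matched by symbol). Alternatives covered the probe set rule, scaling, filter, size rule, unit, limma settings, motif and window. The steps were tested on simulated data.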

Additional observations from a re-analysis of the deposited data

How the results depend on the processing

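With 3 arrays, no difference has a replicate error; dim signal limits the 7 genes below the filter level. The median of the members with siAkt1-22 kept its sign under averaged probe sets, median centring, quantile normalization, a loess correction and both filters, and was 0.13 with probe sets as the unit. Averaging the probe sets of a gene left 11 of the 15 members at least 2-fold higher with siAkt1-22 than siNT in number. It left 0 members at least 2-fold higher with siAkt1-58, 0 with both, and 1 lower with siAkt1-22 than with siAkt1-58. The filter at the 50th percentile left 11 higher with siAkt1-22 than siNT and 6 higher with siAkt1-22 than with siAkt1-58. Shares of all genes under averaged probe sets and under this filter are not given here, so these counts describe the members only. At 1.5-fold, 16 were higher with siAkt1-22 than with siAkt1-58 (8.76% of all genes) and 1 was lower with siAkt1-58 than siNT (6.18% of all genes). With probe sets as the unit, 27 were higher and 8 lower with siAkt1-22 than siNT, and 19 higher and 9 lower with siAkt1-22 than with siAkt1-58. Of all probe sets, 2.5% were at least 2-fold higher and 4.19% lower with siAkt1-22 than siNT. Their shares between the siRNAs are not given here. Leaving out a siAkt1 library moved the number of members 2-fold higher in all siAkt1 libraries left between 2 and 15 and of those lower between 0 and 2; the 15 and 2 are the values without siAkt1-58. The cause of these changes was not tested. Limma called 0 genes at an adjusted p under 0.05 under all 6 alternatives, with 485 to 1803 genes at an unadjusted p under 0.05; without either siAkt1 library it has no residual degree of freedom. No paired analysis was possible because siNT has 1 library and the labels give no replicate numbers. Shares of promoters with a core were 57.9% before the start alone and 71.1% with a spacing of 2 or 3, against 3.71% and 7.39% of all genes.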

Other observations

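Many of the interferon-stimulated genes lie side by side in the genome, and 14 pairs of neighbours were formed among measured protein-coding genes. With siAkt1-22, where 37 of the 48 members were above siNT, both genes were above it in 11 pairs and on opposite sides in 3. IFIT1 (1.96) and its neighbour IFIT5 (-0.93) were 1 such pair, and PARP9 (0.41) and DTX3L (-1.42) another. In the third, IFITM2 (-0.03) and IFITM1 (0.29), the difference of IFITM2 was close to 0. The same holds for OAS2 (0.00), CMPK2 (0.09) and RSAD2 (0.04) among the 11 pairs. The share of such pairs among all neighbouring genes is not given here, so the 11 are a description only. HERC5 (1.86) and HERC6 (0.53) shared their side with siAkt1-22 but not with siAkt1-58, where they read -0.52 and 0.47. The 3 neighbours PSMB8, TAP1 and PSMB9 read 1.16, 0.93 and 1.26 with siAkt1-22. On chromosome 12, OAS1, OAS3 and OAS2 read 1.68, 0.82 and 0.00 with siAkt1-22, and 1.52, 0.29 and 0.08 with siAkt1-58.

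Probe sets that the annotation gives to more than 1 gene entry were not used for the genes. Among them, 5 included PML, with differences from -0.22 to 0.29 with siAkt1-22.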
